A study of Homo sapiens with 12 samples.

Results

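Golgins are long coiled-coil proteins that stand out from the membranes of the Golgi apparatus and catch transport vesicles on their way to it. The 10 golgins described here are GOLGA1, GOLGA2, GOLGA3, GOLGA4, GOLGA5, GOLGB1, GCC1, GCC2, TRIP11 and TMF1, chosen as members of this protein class with earlier results of these data known. On the arrays a gene is read by a transcript cluster, a set of probes along its transcript that is summarised as 1 value. Each golgin was taken from the cluster that the platform annotation gives to that gene alone, and each of the 10 had exactly 1 such cluster, among 19460 clusters with 1 gene, 21214 with any gene name and 33297 in all. Total RNA came from U87 cells, an established human glioblastoma line, hybridised to 12 Affymetrix Human Gene 1.0 ST arrays. The cells had received, over 72 h, 3α-THP (allopregnanolone, 10 nM), P4 (progesterone, 10 nM), F (finasteride, 100 nM) or vehicle (V), with 3 arrays per treatment labelled as biological replicates 1 to 3. In all 4 treatments the medium was changed a day earlier to one without phenol red and with charcoal-stripped serum, which holds little steroid of its own. The sample labels and the study's methods give V as 0.1% DMSO, the treatment protocol gives another percentage, and whether the steroids were dissolved in the same amount of DMSO is not given in the sources used here.

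P4 is reduced by 5α-reductase and then at its ketone to 3α-THP, and F is a synthetic steroid that inhibits 5α-reductase. Golgins are spread over the Golgi stack. GOLGA2, GOLGA5, TRIP11, GOLGB1 (giantin), TMF1 and GOLGA3 are placed mostly at its entry side and at the rims of its cisternae, where they receive vesicles from the endoplasmic reticulum and from other cisternae, while GOLGA1, GOLGA4, GCC1 and GCC2 share a GRIP domain that binds them to the exit side, where vesicles from endosomes arrive. The small GTPases ARL1, RAB1 and RAB6 are known to recruit several of them.

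The regulatory sequence just upstream of the golgin genes is shown because the study searched for CREB1 and CEBP sites in promoters of genes that responded to 3α-THP. RefSeq promoters on GRCh38.p14 matched 9 of the 10 golgins, with GOLGA4 not among them, and the 250 bases before the annotated start were searched on both strands for TGACG, the short core of a site bound by CREB1, and for CCAAT, the box for which the CEBP proteins were named. The TGACG letters were found in 21.2% of 35116 promoters and the CCAAT letters in 32.0%. Among the 9 matched golgins 6 held TGACG (GOLGA1, GOLGA2, GOLGA5, GOLGB1, GCC1 and TMF1) and 3 held CCAAT (GOLGA2, GOLGB1 and GCC2). TGACG on both strands, overlapping into 1 palindrome, was present in 1.65% of promoters, and in TMF1 and GCC1. The windows below are those of the 2 palindromes and of the other 3 matched golgins that passed the threshold (fold above 1.5, unadjusted p below 0.05) with 3α-THP and with F against V. Capitals mark a TGACG or a CCAAT, on the strand shown or, where they read CGTCA or ATTGG, on the opposite strand.
TMF1: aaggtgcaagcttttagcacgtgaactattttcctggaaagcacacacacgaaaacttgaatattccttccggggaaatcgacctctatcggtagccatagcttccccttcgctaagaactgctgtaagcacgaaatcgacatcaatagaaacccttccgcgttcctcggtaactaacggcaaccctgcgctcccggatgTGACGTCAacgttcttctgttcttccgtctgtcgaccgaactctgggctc
GCC1: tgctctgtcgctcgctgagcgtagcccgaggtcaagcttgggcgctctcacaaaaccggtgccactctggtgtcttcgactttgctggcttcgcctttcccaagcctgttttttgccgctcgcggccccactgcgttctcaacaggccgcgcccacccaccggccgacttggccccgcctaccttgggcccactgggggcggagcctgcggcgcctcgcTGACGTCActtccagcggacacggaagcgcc
GOLGB1: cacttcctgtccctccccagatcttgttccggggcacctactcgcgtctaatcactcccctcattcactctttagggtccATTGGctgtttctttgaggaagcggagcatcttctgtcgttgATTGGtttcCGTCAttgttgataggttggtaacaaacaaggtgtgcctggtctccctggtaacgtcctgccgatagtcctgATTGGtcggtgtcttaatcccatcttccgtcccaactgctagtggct
GCC2: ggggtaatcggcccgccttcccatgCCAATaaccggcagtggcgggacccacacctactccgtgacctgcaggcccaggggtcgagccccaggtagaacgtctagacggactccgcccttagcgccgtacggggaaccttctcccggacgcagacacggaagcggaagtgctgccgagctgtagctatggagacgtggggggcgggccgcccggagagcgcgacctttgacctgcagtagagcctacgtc
TRIP11: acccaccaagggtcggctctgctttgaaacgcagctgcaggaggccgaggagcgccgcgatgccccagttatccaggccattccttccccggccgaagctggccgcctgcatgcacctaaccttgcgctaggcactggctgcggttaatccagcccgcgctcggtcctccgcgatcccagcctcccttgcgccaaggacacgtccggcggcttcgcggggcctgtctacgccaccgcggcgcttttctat
The TMF1 window lies on the minus strand at chr3:69052334-69052583 with its palindrome starting at -50 from the start site, and the GCC1 window on the minus strand at chr7:127585597-127585846 with its palindrome starting at -31. The GOLGB1 window (minus strand, chr3:121749742-121749991) held CCAAT on the opposite strand at -170, -128 and -47 and TGACG on the opposite strand at -119. The GCC2 window (plus strand, chr2:108448956-108449205) held 1 CCAAT at -225, and the TRIP11 window (minus strand, chr14:92040060-92040309) held neither. Of the golgins that passed the threshold 4 were matched and 2 of them held TGACG, against 4 of the 5 golgins that did not pass it. CCAAT was held by 2 of the 4 and by 1 of the 5. Whether either motif goes with passing the threshold was not tested. A match of letters is not a measured binding site, and a CCAAT is not read here as a CEBP site. The study instead used several prediction programs with matrix scores over promoters and adjacent regions. The counts here are therefore not comparable with its CREB1 and CEBP sites.

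The values are log2 signal per cluster, so 1 unit is a doubling, and the level of a golgin is set against other arrays for the same gene and not against another golgin. The arrays were alike in their overall level, with medians over the tested clusters between 6.35 and 6.40. Ranks among genes depend on their probes and serve here only as a rough check of the labelled cell line. VIM, CD44, FN1, SPARC and TNC, which glioblastoma lines express, ranked between percentiles 95.8 and 99.9 of mean level over the 12 arrays, while the neural stem cell marker NES ranked at 41.9. Of the markers of other cell types PTPRC, ALB, PECAM1, MBP and SYP ranked between 3.92 and 28.7, and CD68, a lysosomal protein that is not confined to macrophages, ranked at 98.2. In bulk RNA a change in the number of cells that express a gene and a change in the level per cell cannot be told apart.

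The 10 golgins fell into a variable and a steady set. Over the 12 arrays GCC2, TRIP11, GOLGA4, GOLGB1 and TMF1 ranged over 1.03 to 1.79 log2 units, while GOLGA1, GOLGA2, GOLGA3, GOLGA5 and GCC1 ranged over 0.25 to 0.44. Both sets hold golgins of the entry side and rims and golgins of the exit side.

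**Figure D1:**
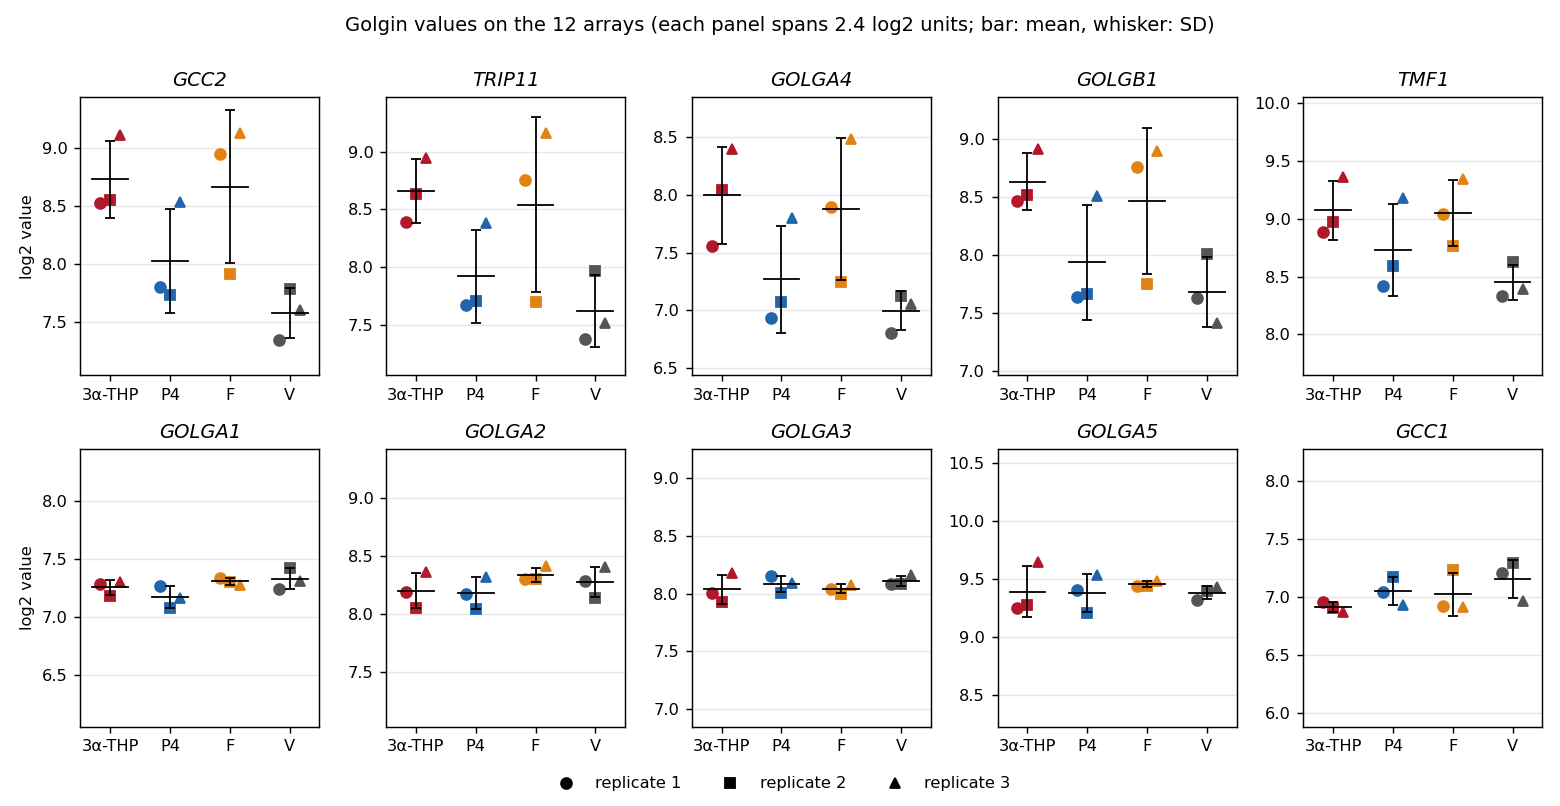
Log2 value of each golgin on every array, with 3α-THP, P4, F and V from left to right, 1 symbol shape per replicate number, the mean as a bar and the SD as a whisker (n = 3 per treatment). In the upper row the 3α-THP arrays lie above the V arrays, while F replicate 2 lies near V and P4 replicate 3 lies above the other P4 arrays. In the lower row the panels, drawn to the same span, show little spread.

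GCC2, an exit-side golgin known for its part in the return of mannose 6-phosphate receptors from endosomes, had the largest difference from V of the 10 golgins with 3α-THP and with F. Its values were 8.52, 8.56 and 9.11 with 3α-THP and 7.80, 7.73 and 8.54 with P4. They were 8.95, 7.91 and 9.13 with F, against 7.35, 7.78 and 7.60 with V. All 3α-THP and all F arrays lay above all V arrays, although F replicate 2 did so by little. The mean was 8.73 ± 0.330 with 3α-THP, 8.02 ± 0.447 with P4 and 8.67 ± 0.660 with F, against 7.58 ± 0.219 with V (SD, n = 3 each).

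GOLGA4, the second exit-side golgin of the variable set and a partner of ARL1, had values of 7.55, 8.04 and 8.39 with 3α-THP and 6.93, 7.08 and 7.79 with P4. With F they were 7.90, 7.25 and 8.48, against 6.81, 7.13 and 7.06 with V. Here too every 3α-THP and F array exceeded every V array, and P4 replicates 1 and 2 stayed within the V range. TRIP11, which holds the entry side of the stack and captures vesicles there, measured 8.40, 8.63 and 8.95 with 3α-THP and 7.68, 7.71 and 8.39 with P4. It measured 8.76, 7.70 and 9.16 with F, against 7.38, 7.97 and 7.52 with V, so F replicate 2 fell inside the V range while the 3α-THP arrays stood above it.

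GOLGB1, a membrane-anchored golgin of the rims, gave 8.47, 8.52 and 8.92 with 3α-THP and 7.64, 7.66 and 8.51 with P4. It gave 8.76, 7.75 and 8.90 with F, against 7.63, 8.01 and 7.41 with V, and again F replicate 2 lay inside the V range. TMF1, a rim golgin first described for its binding to a TATA element, gave 8.88, 8.97 and 9.36 with 3α-THP and 8.42, 8.59 and 9.18 with P4. It gave 9.04, 8.77 and 9.34 with F, against 8.33, 8.62 and 8.39 with V, and its 3α-THP and F arrays all exceeded its V arrays. P4 replicate 3 was above all V arrays for each of these 5 genes.

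The 5 steady golgins had narrower ranges, and where their groups of arrays did not overlap the differences were small. GOLGA2, which anchors the tether USO1 at the entry side, lay between 8.04 and 8.41 on all arrays. GOLGA5, a membrane-anchored golgin, lay between 9.21 and 9.65 and GOLGA3 between 7.93 and 8.18. GOLGA1, which binds ARL1 at the exit side, lay between 7.08 and 7.43. GCC1, another exit-side golgin, lay between 6.87 and 7.29. The 3α-THP values of GCC1 were 6.96, 6.90 and 6.87, against 7.21, 7.29 and 6.97 with V, so this was the only golgin whose 3α-THP arrays were all below the V arrays.

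The effect of each steroid was tested against V with limma over all 12 arrays, with that threshold, which is the study's own. With 3α-THP 5 of 10 golgins passed it, all higher than in V, while 0.627% of the 21214 tested clusters passed it upward. GCC2 was higher by 1.15 (SE 0.295, limma adjusted p = 0.406), TRIP11 by 1.03 (SE 0.314), GOLGA4 by 1.00 (SE 0.296), GOLGB1 by 0.95 (SE 0.295) and TMF1 by 0.62 (SE 0.197) on the log2 scale, which are folds of 2.22, 2.05, 2.00, 1.93 and 1.54. In these same 5 genes all 3α-THP arrays lay above all V arrays, as they did in 4.02% of tested clusters. GCC1 was the 1 golgin with all arrays below V (7.28% of tested clusters), at -0.24 (SE 0.112, limma adjusted p = 0.674), which is under the fold. The other 4 lay between -0.07 and 0.01. The median of the 10 golgins was 0.32, beside -0.03 over all tested clusters. It falls in the gap between the golgins that passed and those that did not, so no golgin lay near it. After Benjamini-Hochberg adjustment over the tested clusters no golgin passed at 0.05, GCC2 having the smallest adjusted p of the 10 in limma.

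With F the same 5 golgins passed the threshold upward, beside 0.382% of tested clusters. GCC2 was higher by 1.09 (SE 0.295, limma adjusted p = 0.833), TRIP11 by 0.92 (SE 0.314), GOLGA4 by 0.88 (SE 0.296), GOLGB1 by 0.78 (SE 0.295) and TMF1 by 0.60 (SE 0.197), and the other 5 lay between -0.13 and 0.07. All F arrays were above all V arrays for GOLGA4, GCC2, TMF1 and, by a small margin, GOLGA5 at 0.07, beside 3.6% of tested clusters, and below them for GOLGA3 at -0.07, beside 5.51%. The golgin median was 0.34, beside -0.02 over all tested clusters, and the smallest adjusted p in limma was 0.833. That median too falls between the golgins that passed and those that did not. These calls leaned on single arrays. Without F replicate 3 only GCC2 passed, and without V replicate 3 only GOLGA4, GCC2 and TRIP11 did. In a plain analysis of variance over all arrays GOLGB1 did not pass with F. 3α-THP and F were compared with the same 3 V arrays, so a low or high V array moves both comparisons together.

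With P4 no golgin passed the threshold, beside 0.0236% of tested clusters in either direction, and none had an unadjusted limma p under 0.05, beside 1.82% of tested clusters. The largest difference was that of GCC2 at 0.45 with a 95% interval of -0.192 to 1.09, which holds both no difference and a doubling. TRIP11, TMF1, GOLGA4 and GOLGB1 lay between 0.25 and 0.30, and GOLGA1, with the smallest p of the 10, lay at -0.16. The golgin median was 0.13, between the variable and the steady golgins, beside -0.01 over all tested clusters.

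**Figure D2:**
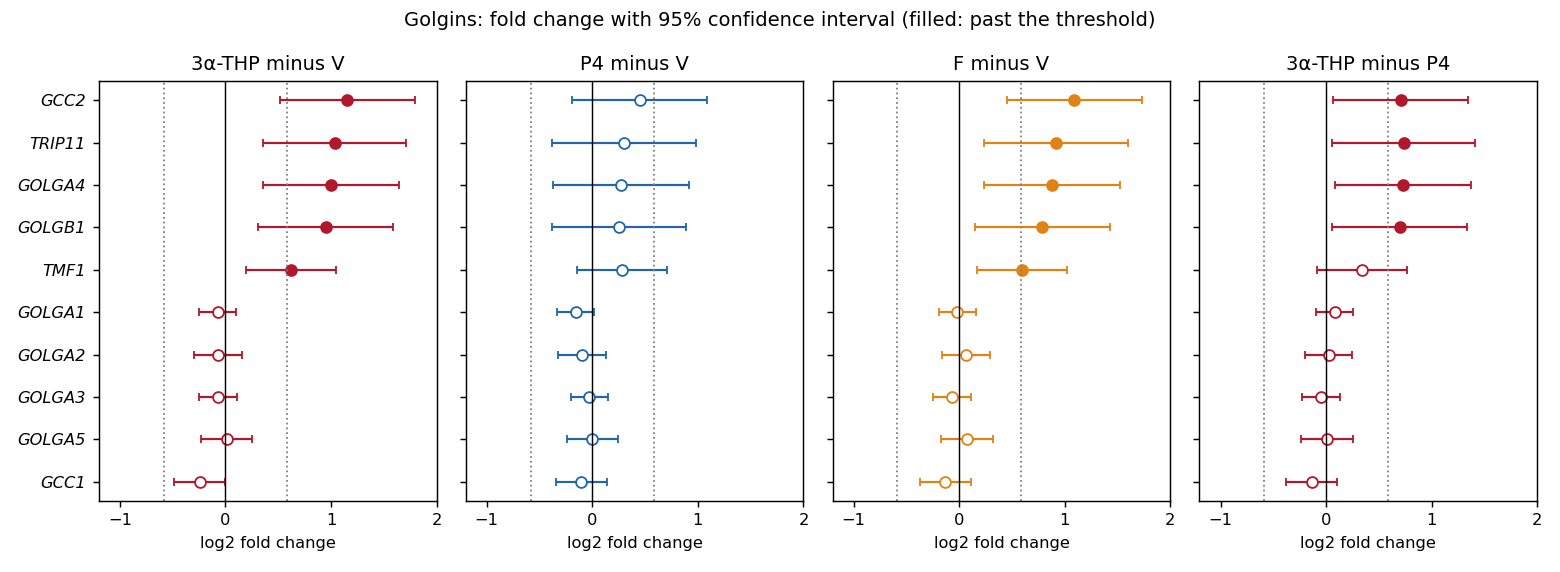
Log2 fold change of each golgin with its 95% confidence interval from limma in 4 comparisons, filled where the threshold of a 1.5-fold difference (dotted lines) and an unadjusted p under 0.05 was passed. GCC2, TRIP11, GOLGA4, GOLGB1 and TMF1 are filled with 3α-THP and with F against V and open with P4. The first 4 of them are filled in 3α-THP against P4.

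3α-THP and P4 were given at the same dose of 10 nM for the same 72 h, and 3α-THP differs from P4 by the reduction of a ring double bond and of a ketone to a hydroxyl group. Among the 10 golgins 4 were higher with 3α-THP than with P4 past the threshold, beside 0.222% of tested clusters. The differences were 0.73 (SE 0.314, limma adjusted p = 0.999) for TRIP11, 0.73 (SE 0.296) for GOLGA4, 0.71 (SE 0.295) for GCC2 and 0.70 (SE 0.295) for GOLGB1. TMF1 lay at 0.34 with an interval of -0.0842 to 0.768, and the other 5 lay between -0.14 and 0.08. Only TRIP11 had all its 3α-THP arrays above all its P4 arrays, beside 3.13% of tested clusters, since P4 replicate 3 reached into the 3α-THP range of the other 3. With any one of 3α-THP replicate 3, P4 replicate 1 or P4 replicate 2 left out, 0 golgins passed. With 3α-THP replicate 2 left out 2 passed, GOLGB1 and GCC2. No golgin passed the adjustment over the tested clusters, the smallest adjusted p in limma being 0.999.

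F was given at 100 nM, so in its comparisons with 3α-THP and P4 the dose differs as well as the compound. Between 3α-THP and F no golgin passed the threshold or an unadjusted limma p of 0.05 (beside 0.0566% of tested clusters past the threshold and 2.29% past that p in either direction). The 5 variable golgins differed by 0.02 to 0.16, with an interval for GCC2 of -0.576 to 0.703, wide enough to hold a 1.5-fold difference upward. Between P4 and F 1 golgin passed, GCC2, lower with P4 by 0.64 (SE 0.295, interval -1.28 to -0.00272, limma adjusted p = 1), beside 0.033% of tested clusters. TRIP11, GOLGA4, GOLGB1 and TMF1 lay at -0.62, -0.61, -0.53 and -0.32 in the same comparison. The interval for GCC2 nearly touches 0. Leaving out single arrays in turn kept this call in 3 of 12 cases.

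The arrays with the same replicate number deviated together from their treatment means, so each treated array was also set against the V array of its number. For 3α-THP, 4, 3 and 5 golgins were over 1.5-fold above V in replicates 1, 2 and 3, beside 0.778%, 1.02% and 1.9% of tested clusters over that fold. For F, 5 golgins were over it in replicates 1 and 3, beside 0.995% and 1.61% of tested clusters, and 0 in replicate 2, beside 0.297%. In F replicate 2 GCC2 was at 0.13, TMF1 at 0.14, GOLGA4 at 0.12, GOLGB1 at -0.26 and TRIP11 at -0.27 relative to V replicate 2. For P4 the same 5 golgins were over 1.5-fold in replicate 3, beside 1.13% of tested clusters, and 0 in replicates 1 and 2, beside 0.212% and 0.42%. In P4 replicate 3 GOLGB1 was at 1.10, GCC2 at 0.94, TRIP11 at 0.86, TMF1 at 0.78 and GOLGA4 at 0.74. In P4 replicate 1 GCC2 was at 0.45, TRIP11 at 0.30, GOLGA4 at 0.13, TMF1 at 0.08 and GOLGB1 at 0.01, and in P4 replicate 2 all 5 were below 0. No steady golgin was over the fold on any array, F replicate 2 was the lowest F array in all 5 variable golgins, and P4 replicate 3 was the highest P4 array in all 5.

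**Figure D3:**
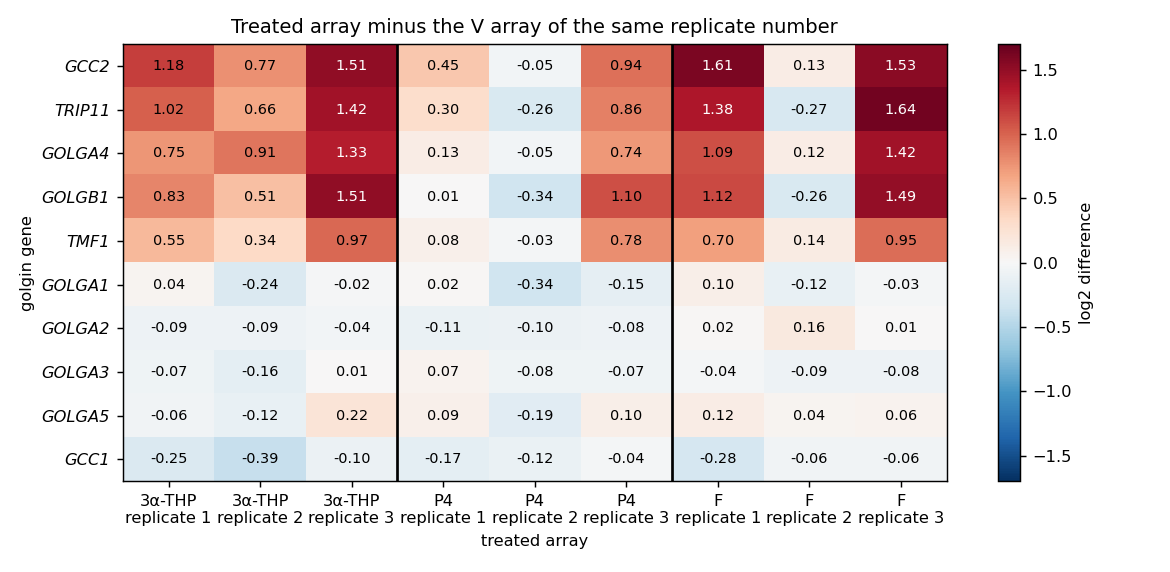
Log2 difference of each treated array from the V array with the same replicate number, golgins in rows and arrays in columns. The upper 5 rows are high on all 3α-THP arrays, on F replicates 1 and 3 and on P4 replicate 3, and near or below 0 on F replicate 2 and P4 replicate 2. The lower 5 rows stay within 0.39 of 0.

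With the replicate number as a block, limma gave the same golgin calls against V and between 3α-THP and P4. Between P4 and F the calls were 3 in place of 1, adding GOLGA4 and TRIP11 to GCC2, all lower with P4 (limma adjusted p = 0.864 for each). The smallest adjusted p in limma with this block was 0.0731 with 3α-THP and 0.216 with F.

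The 5 variable golgins moved together from array to array. Over the 12 arrays their 10 pairs had Pearson r between 0.938 and 0.981 (median 0.962), and after the treatment means were taken off the same pairs still had r between 0.874 and 0.969. Among the 5 steady golgins r ran between -0.374 and 0.748, and between -0.650 and 0.832 after the treatment means were taken off, with GOLGA2, GOLGA3 and GOLGA5 at the upper end. Pairs of 1 variable and 1 steady golgin ran between -0.770 and 0.552, with GCC1 negative against each variable golgin. These are descriptions over arrays that share treatments and replicate numbers.

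**Figure D4:**
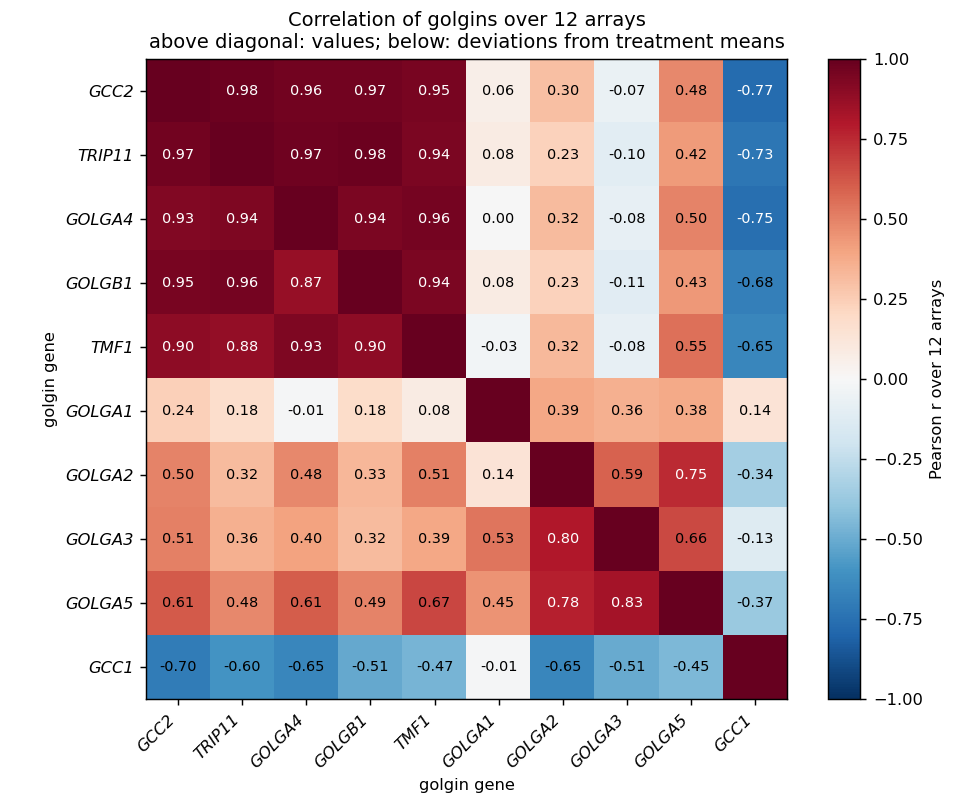
Pearson r between golgins over the 12 arrays, from the values above the diagonal and from deviations from treatment means below it. The block of GCC2, TRIP11, GOLGA4, GOLGB1 and TMF1 lies at 0.87 or higher on both sides, and GCC1 is negative against each of them.

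The genes whose values followed each variable golgin most closely were sought among 18416 genes. Each of the 5 had the other 4 among its 100 closest genes, and none of the 5 steady golgins had a golgin there. The closest other golgin ranked 7 for GOLGB1 and 14 for TMF1. The 5 passed the threshold together on these same arrays, so their closeness is no separate evidence. GOLGB1 was closest to ATRX, a chromatin remodeller (r = 0.995), to DST, a large cytoskeletal linker (r = 0.994), and to ZNF292 (r = 0.991). GCC2 was closest to UACA (r = 0.992), TRIP11 (r = 0.981) and the pseudogene SEPTIN7P13 (r = 0.980), and TMF1 to CD2AP, an adaptor of the actin cytoskeleton (r = 0.991), CCDC14 (r = 0.988) and ZFC3H1 (r = 0.972). GOLGA4 was closest to the transcription factor ZEB1 (r = 0.973), TRIP11 (r = 0.972) and CCDC88A, an actin-binding protein (r = 0.970). TRIP11 was closest to GCC2, CCDC88A and GOLGB1 (r = 0.981, 0.980 and 0.978). With 3α-THP against V, CCDC88A lay at 1.36, ATRX at 1.05, DST at 0.97, UACA at 0.95, ZNF292 at 0.86 and SEPTIN7P13 at 0.62, while ZFC3H1 lay at 0.53, CCDC14 at 0.49, CD2AP at 0.46 and ZEB1 at 0.34. These genes were picked for their likeness to a golgin over the same arrays, so their differences are a description and no further evidence.

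The steady golgins had other neighbours. GOLGA1 was closest to CNRIP1, OXSM and MAN1A1 (r = 0.872, 0.820 and 0.813), GOLGA2 to EPOR, RAB33B and DIP2C (r = 0.932, 0.928 and 0.924) and GOLGA3 to PTGFRN, SYVN1 and SNORD15B (r = 0.930, 0.910 and 0.909). GOLGA5 was closest to SCARB2, SERINC3 and UFM1 (r = 0.950, 0.938 and 0.933), and GCC1 to FXR2, MSRB1 and ARHGDIA (r = 0.935, 0.929 and 0.928).

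The spans of variable and steady golgin genes overlapped, although GCC1 and GOLGA2, the shortest, were both steady. From RefSeq the gene spans 123609 bases for GOLGA4, 86766 for GOLGB1, 74069 for TRIP11, 60210 for GCC2 and 32507 for TMF1. It spans 69769 for GOLGA1, 60168 for GOLGA3, 45643 for GOLGA5, 20179 for GOLGA2 and 4969 for GCC1. Over 18389 genes in 4 groups of equal size ordered from short to long span, 0.283%, 0.152%, 0.653% and 1.5% passed the threshold upward with 3α-THP, and 0.174%, 0.131%, 0.348% and 0.892% with F. The group with the longest span held GOLGA4, GOLGB1 and TRIP11, which passed the threshold with 3α-THP and with F. It also held GOLGA1, which lay at -0.07 with 3α-THP and -0.02 with F. Over these 18389 genes span and log2 fold change had a Spearman correlation of 0.196 with 3α-THP and 0.239 with F. The part of gene length in the differences of the golgins was not tested.

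The rest of the Golgi tethering system was read from 6 further lists. Of the Golgi matrix and golgin-binding proteins 16 of 17 were measured, and 2 passed the threshold upward with 3α-THP, beside 0.627% of tested clusters. CCDC186, a coiled-coil protein of the exit side known in Caenorhabditis elegans for its part in making dense-core vesicles, was higher by 1.09 (SE 0.248, limma adjusted p = 0.376), and CCDC91, a partner of the GGA adaptors, by 0.61 (SE 0.239, limma adjusted p = 0.614). With F 1 of them passed, beside 0.382% of tested clusters, CCDC186 at 1.02, with CCDC91 at 0.53, and with P4 none did. CCDC91 is among the genes the study itself picked from these arrays, so its call is not independent evidence. When the study measured CCDC91 again by RT-qPCR, it reported no change with any steroid given alone. The rise on the arrays was therefore not seen by that method. GORASP1, a stacking protein that binds GOLGA2, lay at -0.23 with 3α-THP. The list median was -0.02 with 3α-THP.

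None of the other 5 lists had a member past the threshold with 3α-THP, P4 or F against V in limma. Over all tested clusters 7.34% had an unadjusted p under 0.05 with 3α-THP. Among the small GTPases that recruit golgins and their regulators (17 of 20 measured) 1 had an unadjusted p under 0.05 with 3α-THP, ARFGEF1 at 0.22, an activator of ARF proteins at the exit side, and RAB1B lay at -0.16. Among the COG, GARP and TRAPP tethering complexes (24 of 25 measured) 1 did, TRAPPC5 at -0.42, with VPS51 at -0.21. Among the Golgi SNAREs (15 of 16 measured), the proteins that fuse a tethered vesicle, none did, and STX10 lay at -0.16 and VAMP3 at -0.12. Among the COPI coat proteins (8 of 9 measured) 2 did, COPZ1 at -0.20 and COPZ2 at -0.30. Among the resident enzymes and membrane proteins (13 of 13 measured) 2 did, the UDP-galactose transporter SLC35A2 at -0.29 and the glycosylation enzyme MGAT1 at -0.24, and 0 of 13 had a positive difference, beside 41.1% of tested clusters. The list medians with 3α-THP were -0.09, -0.03, -0.05, -0.08 and -0.09, beside -0.03 over all tested clusters and 0.32 for the golgins. With F they lay between -0.01 and 0.03, beside 0.34 for the golgins. The golgin medians fall between the variable and the steady golgins and describe neither set. The golgins and the lists were chosen with earlier results of these data known.

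**Figure D5:**
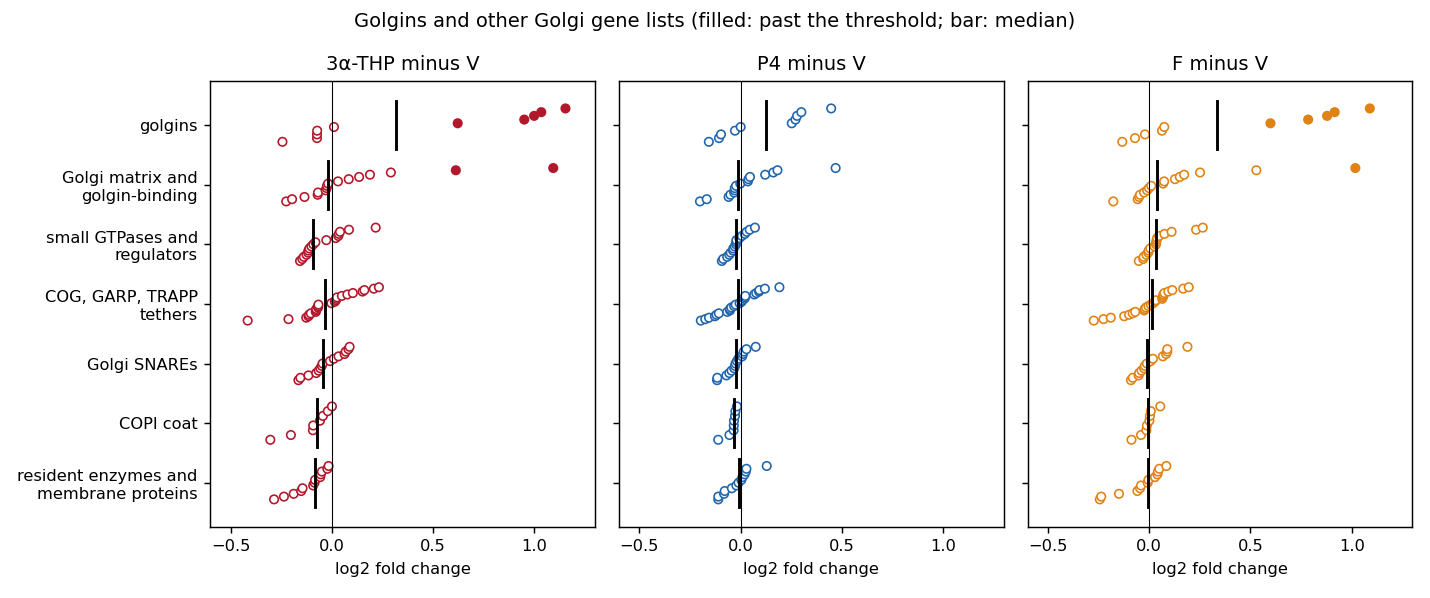
Log2 fold change against V for each measured member of the golgins and of 6 other Golgi gene lists, filled where the threshold was passed, with the list median as a bar. Filled points occur in the golgins and in the Golgi matrix list alone, with 3α-THP and with F, and the P4 panel has none.

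Probes of GCC2 may also read transcripts of the RGPD genes, which carry sequence derived from it, and those of GOLGA2 may read the related GOLGA6 and GOLGA8 genes. None of the 13 such genes listed had a cluster of its own, and the part of their transcripts in the GCC2 and GOLGA2 values was not tested.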

How the data were processed

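The deposited table of log2 values per transcript cluster was made by the authors. The submitters' processing notes name Affymetrix Expression Console 1.4, and the study's methods name quantile normalization and RMA, without saying which made this table. Values lay between 1.25 and 14.1 on 12 arrays, whose number limits the precision, and all arrays were used. The values were taken as deposited into R 4.3.3, where limma 3.58.1 estimated a mean for each treatment with moderated variances (prior degrees of freedom 4.73) and Benjamini-Hochberg adjustment over the 21214 clusters with a gene name. The 12083 unnamed clusters were not tested. The fit was also run on simulated data with independent noise on every array. That run does not cover the shared deviations of arrays with the same replicate number.

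Genes named are the 10 golgins, the 3 genes closest to each by Pearson r, and in every other list the members past the threshold or with the 2 smallest p with 3α-THP. The members and lists were chosen with earlier results of these data known. Arrays with the same replicate number deviated alike from their treatment means, and their 18 pairs correlated at 0.132 to 0.631 (median 0.400). The 36 pairs of unlike number ran from -0.604 to 0.226 (median -0.245). Deviations cancel within each treatment, so the negative median is not separate evidence of pairing. The labels call the arrays biological replicates. Protein length was to be described, and gene span from RefSeq GRCh38.p14 stands in its place. Alternatives were the block, only the 2 treatments compared, a plain analysis of variance, quantile normalization, dim clusters left out, array weights, a variance trend, the arrays with number 2 left out and each array left out. The table's own build is not given in the sources used here.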

Additional observations from a re-analysis of the deposited data

How the results depend on the processing

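Golgin counts past the threshold were 5 with 3α-THP, 5 with F and 0 with P4 against V. Across 1200 golgin values in 20 alternative settings, 1142 stayed on their side of the threshold, 43 lost it, 15 gained it and no called value changed sign. Most of the 60 golgin values in the main fit were not past the threshold. The 1142 are therefore mostly values called in neither setting and do not measure how firm the calls were. With the replicate number as a block, P4 against F had 3 golgins in place of 1, and this pairing changed no other golgin call. That count was 0 with only the 2 treatments compared, with the analysis of variance, with quantile normalization and with dim clusters left out, and 4 with array weights and with the arrays of number 2 left out. In the analysis of variance 3α-THP against P4 had 0 golgins in place of 4. F against V had 4 there in place of 5, without GOLGB1. P4 against V had 1, GCC2, with the arrays of number 2 left out. Leaving out 1 array gave 4 to 5 golgins for 3α-THP, 1 to 5 for F and 0 to 0 for P4 against V. It gave 0 to 4 for 3α-THP against P4, 0 to 4 for P4 against F and 0 to 0 for 3α-THP against F. TMF1 passed with 3α-THP neither without V replicate 1 nor without 3α-THP replicate 3. For P4 against F the 4 came without P4 replicate 3 or F replicate 2. The causes were not tested. In every setting the smallest adjusted p of a golgin against V stayed above 0.05, the lowest being 0.0512 with F without the arrays of number 2. A mean over several clusters of a gene was not run, because each golgin had 1.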
